A study of Mus musculus with 39 samples.

Results

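Olfactory receptors are odorant-binding G protein-coupled receptors whose genes form the largest family in the mouse genome, and the transcripts described here are those members of the family that were detected in oocytes and preimplantation embryos. A member is an array probe whose gene name on the array is Olfr followed by a number and whose spot the 3 arrays of at least 1 of 13 conditions all called well above background. The members were thus chosen by their measured signals. The rule kept 191 probes for 185 genes, out of 1171 such probes for 1076 genes and 55681 non-control probes on the array. Since signals chose them, detection and levels are given as descriptions. The flag "well above background" is the scanner software's own call, made spot by spot and array by array.

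The study asked how selective inhibitors of class I histone deacetylases alter the transcriptome of mouse embryos made by in vitro fertilisation. Eggs came from B6D2F1 females of 8 to 9 weeks and sperm from ICR males of 15 to 20 weeks, and each array carried the RNA of 100 pooled oocytes or embryos, with 3 biological replicates in each condition. Control embryos without inhibitor were collected as GV oocytes, MII oocytes, and 1-cell, 2-cell, 4-cell, 8-cell, morula and blastocyst embryos. Treated embryos were held for 6 h from 4 h post-insemination in medium with 10 µM T247, an inhibitor selective for HDAC3, or 10 µM MGCD0103, which inhibits HDAC1, HDAC2 and HDAC3. After return to plain medium they were collected at the 1-cell stage (12 h post-insemination) and the 2-cell stage (24 h), and for T247 also at the 4-cell stage (48 h). No 4-cell MGCD0103 condition is among the 13. Since 100 embryos were pooled, fewer embryos expressing a receptor and less RNA per embryo cannot be told apart.

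In the nose, each olfactory sensory neuron settles on a single allele of a single receptor gene. The remaining receptor genes lie in large clusters packed in repressive chromatin, and their release depends on demethylation of histones at the chosen allele. A feedback signal that starts with translation of the receptor then holds the choice. Some receptors are also transcribed outside the nose, most clearly in testis and sperm. In the embryo, genome activation begins with a minor wave at the 1-cell stage and a major wave at the 2-cell stage, in a period of unusually open chromatin, and inhibitors of histone deacetylases raise histone acetylation in that window.

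Olfactory receptor genes resemble each other, so the probe sequences are shown first for members on which the results turn and whose annotated gene model holds coding sequence alone. Each probe has 60 bases, written 5′ to 3′, and the capitals mark the longest run that the probe shares, base for base, with a probe for a differently named Olfr gene on the same array (runs under 12 bases are left in lower case).
Olfr1500, chr19:13901950-13902009 (mm9, minus strand): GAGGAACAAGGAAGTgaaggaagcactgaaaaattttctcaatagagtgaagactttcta
Olfr1410, chr1:94505050-94505109 (mm9, plus strand): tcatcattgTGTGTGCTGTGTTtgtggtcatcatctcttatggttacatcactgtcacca
Olfr780, chr10:128759488-128759547 (mm9, plus strand): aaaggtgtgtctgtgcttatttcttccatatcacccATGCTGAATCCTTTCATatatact
Olfr984, chr9:39908129-39908188 (mm9, minus strand): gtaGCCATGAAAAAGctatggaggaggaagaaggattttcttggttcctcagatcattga
Olfr357, chr2:36853199-36853258 (mm9, plus strand): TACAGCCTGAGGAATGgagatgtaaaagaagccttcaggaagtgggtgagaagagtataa
Olfr118, chr17:37809876-37809935 (mm9, plus strand): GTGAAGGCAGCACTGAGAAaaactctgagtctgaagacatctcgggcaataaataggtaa
Olfr120, chr17:37863876-37863935 (mm9, plus strand): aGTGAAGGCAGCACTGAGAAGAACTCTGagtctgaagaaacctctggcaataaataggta
Olfr390, chr11:73601290-73601349 (mm9, plus strand): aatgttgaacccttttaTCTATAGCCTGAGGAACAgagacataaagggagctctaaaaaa
Olfr815, first probe, chr10:129338836-129338895 (mm9, minus strand): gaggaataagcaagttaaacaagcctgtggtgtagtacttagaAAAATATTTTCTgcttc
Olfr815, second probe, chr10:129339075-129339134 (mm9, minus strand): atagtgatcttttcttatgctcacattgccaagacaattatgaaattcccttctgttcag

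The Olfr1500 probe starts at base 875 of a transcript with a coding length of 936 bases and shares at most 15 contiguous bases with any other Olfr probe, that for Olfr6. The Olfr118 and Olfr120 probes are the opposite case. Laid over each other they were identical at 55 of 59 bases, and the Olfr120 probe shared 27 contiguous bases and 88.1% of its overlap with the probe for Olfr129, another member. Signals of Olfr118, Olfr120 and Olfr129 are therefore uncertain as to which of these genes they come from. The same holds for pairs of members with longer shared runs: Olfr204 and Olfr206 (41 bases), Olfr530 and Olfr536 (40) and Olfr328 and Olfr330 (38). Over the members the median longest shared run was 13 bases, against 14 for the Olfr probes that were not members, and 19.4% of members and 19% of the rest shared 20 bases or more. Members had a median GC content of 43.3% (35% to 55%), and the other 980 Olfr probes 38.3% (18.3% to 55%).

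Few of the family's probes were detected, in comparison with the array as a whole. Members made up 16.3% of the Olfr probes, whereas 65.2% of all probes passed the same rule. The vomeronasal receptors, a pheromone-sensing family, passed it more often, with 44 of 172 Vmn1r probes (25.6%) and 36 of 116 Vmn2r probes (31%), and the bitter taste receptors about as often, with 6 of 37 Tas2r probes (16.2%). Of the trace amine-associated receptors 1 of 15 probes passed, and of the formyl peptide receptors 0 of 6. Of the 1171 Olfr probes, 676 were not well above background on any array, and 28 reached 2 of 3 arrays in their best condition, the first of them in alphabetical order being Olfr1036, Olfr1128 and Olfr1148. Just inside the rule stood 29 members detected in 1 condition, 5 of them (Olfr315, Olfr331, Olfr52, Olfr665 and a probe for Olfr847) on 3 arrays in all. At the other end 21 members were well above background on all 39 arrays. By chromosome, members were 23 of 81 Olfr probes on chromosome 11 (28.4%) and 14 of 50 on chromosome 17 (28%), against 37 of 256 on chromosome 7 (14.5%) and 35 of 299 on chromosome 2 (11.7%).

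Detection was broadest in GV oocytes and in the treated 1-cell and 2-cell embryos. Of the 191 members, 116 were detected on all 3 arrays of GV oocytes, 63 of MII oocytes, 72 of control 1-cell embryos and 79 of control 2-cell embryos. Controls of the 4-cell, 8-cell, morula and blastocyst stages detected 53, 46, 41 and 48. Under T247 it was 121 at the 1-cell, 121 at the 2-cell and 91 at the 4-cell stage, and under MGCD0103 it was 108 at the 1-cell and 112 at the 2-cell stage. For 45 members the treated conditions were the only ones in which the rule was met. The limit of detection moved in the same direction. The lowest log2 signal called well above background lay between 3.33 and 4.14 on the 15 treated arrays and between 3.74 and 4.76 on the 24 control arrays, and the share of all probes detected was 49.8% to 57.4% and 43.7% to 54.4%, respectively. Controls were hybridised on 3 slides and treated samples on 3 others, so that slide and treatment cannot be told apart, and the part of the lower limit in these numbers was not tested.

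**Figure D1:**
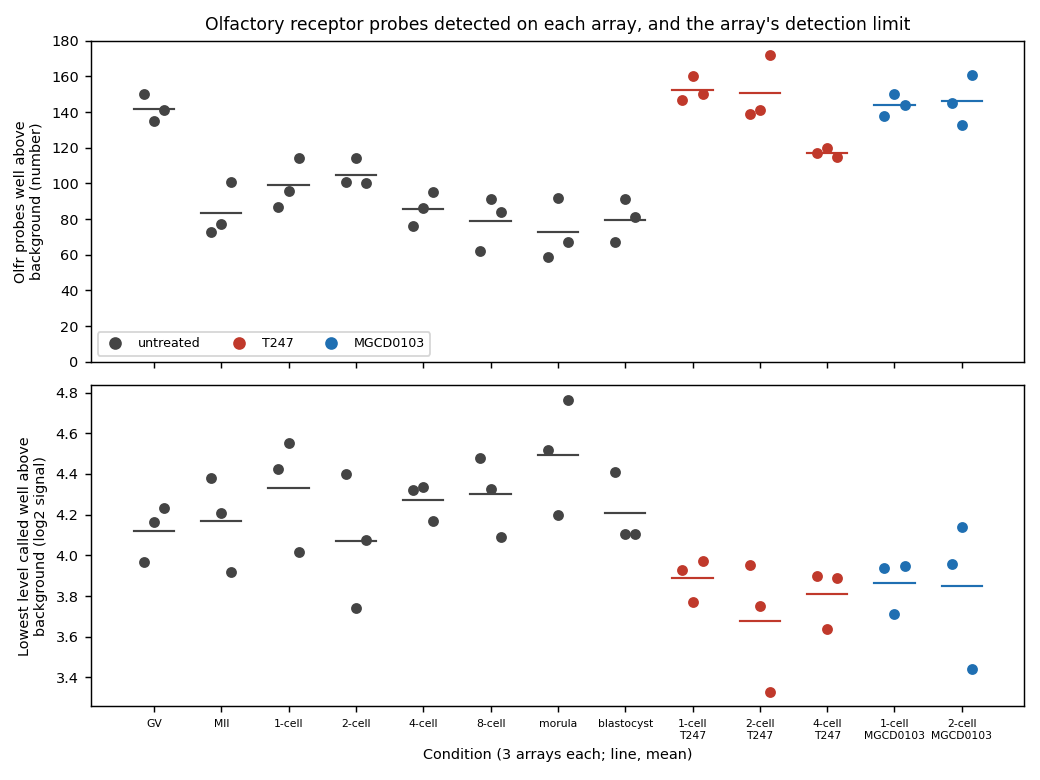
Upper panel, number of olfactory receptor probes well above background on each array (points; line, mean of 3) in the 13 conditions, and lower panel, the lowest log2 signal called well above background on the same arrays; "untreated" marks the controls. Control arrays ran from 59 probes in a morula sample to 150 in a GV oocyte sample and treated arrays from 115 to 172, while the detection limit was lower on most treated arrays.

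The arrays were alike within conditions, with one exception. Over all probes passing the detection rule, replicates of a condition correlated at 0.98 or above, apart from control 2-cell replicate 1, whose correlations with the other replicates went down to 0.938. Values below are log2 processed signals after smooth quantile normalisation, apart from summed marker signals, which are linear and not normalised. Differences are tested with limma over all 36284 probes passing the rule. A member is called when its log2 difference is at least 1 in size and its Benjamini-Hochberg adjusted p is under 0.05. Depth of signal sets a limit for many members: where the lower group was not well above background on any array, the difference is given as "at least", computed against the lowest signal that the arrays of that group could detect. The 146 members detected in a control condition had their highest control mean in GV oocytes for 70, in 2-cell embryos for 30, in 1-cell embryos for 12, in blastocysts for 11, in morulae for 10, in MII oocytes for 9, in 4-cell embryos for 3 and in 8-cell embryos for 1. These counts were not made over all probes or under another scaling. The direction of the step from GV to MII oocytes depended on scaling, as given below.

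**Figure D2:**
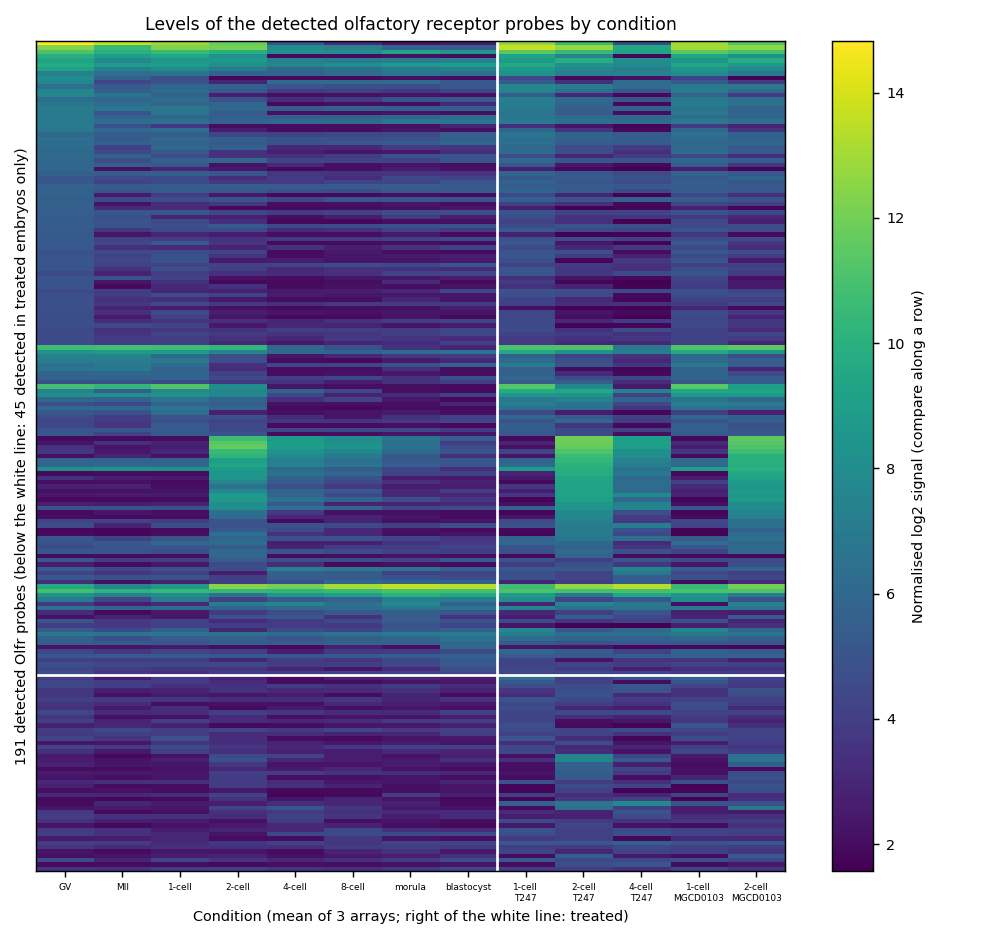
Mean normalised log2 signal over 3 arrays (colour) of the 191 members (rows) in the 13 conditions (columns), controls to the left and treated embryos to the right of the vertical white line; the 45 members below the horizontal line were detected in treated embryos alone. Colours are to be compared along a row, and show a block of rows bright at the 2-cell stage, in control and treated embryos, that is dark in oocytes and 1-cell embryos.

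At the 2-cell stage several members rose from background by more than an order of magnitude. The share of members called higher than at the 1-cell stage was close to that of all probes (20.4% and 20.5%), so the genes below are a description. Olfr118 stood at 3.51, 2.39 and 2.19 in the 1-cell controls and at 11.65, 11.56 and 11.65 in the 2-cell controls, at least 156-fold higher (log2 difference 8.92 ± 0.28 SE, adjusted p = 2.49e-21). None of the 1-cell arrays detected it and all 2-cell arrays did, with a spread between replicates that was small beside the difference. Olfr121 went from 3.32, 2.91 and 2.16 to 11.43, 11.46 and 11.46, at least 139-fold. Olfr120 was at least 58.9-fold higher, Olfr376 at least 80.4-fold, Olfr713 at least 72.7-fold and Olfr389 at least 21.0-fold. In each of these genes the 3 and 3 arrays did not overlap. A pair of genes rose from a level already measured at the 1-cell stage: Olfr1466 by 13.4-fold, from 8.69 ± 0.21 to 12.44 ± 0.33 (SD, n = 3), and Olfr392 by 3.42 on the log2 scale, from 5.98 ± 0.08 to 9.40 ± 0.49. Genes that mark the 2-cell embryo moved the same way, with all 4 probes for Zfp352 and Tdpoz4 higher than at the 1-cell stage (median log2 difference 8.06).

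In all, 39 members were higher and 41 lower at the 2-cell than at the 1-cell stage (20.4% and 21.5%). Of all probes tested 20.5% were called higher and 29.6% lower, 50.1% in all. The split of members depended on scaling: it was 41 higher and 30 lower when each array was scaled on its 75th percentile, and 33 higher and 55 lower after quantile normalisation. The genes that rose included close neighbours. Of the 37 genes that rose, 10 stood next to another riser in the order of the olfactory receptor genes along the RefSeq annotation (GRCm38.p6). How often members that did not rise stand side by side was not counted. Olfr389 and Olfr390 as well as Olfr328 and Olfr224 lie side by side on chromosome 11. Olfr118, Olfr119, Olfr120 and Olfr121 form a run on chromosome 17 that 1 other gene interrupts, between Olfr119 and Olfr120, and 1 other gene also lies between Olfr787 and Olfr788 on chromosome 10. Olfr328 and Olfr788 were not detected on all 3 arrays of any control condition. Probes for Olfr118 and Olfr120 resemble each other, as given above, and that for Olfr328 shares 38 contiguous bases with that for Olfr330, another riser. Shared sequence does not link all of these probes. The Olfr119 and Olfr121 probes shared no run over 11 bases with another Olfr probe, and the Olfr121 probe was identical to that of Olfr118 at 22 of 56 overlapping bases. Olfr390 went from background to 8.00, 7.09 and 7.71. Olfr119 itself was at 6.84, 6.17 and 6.29 in the 2-cell controls and between 1.77 and 2.30 on every control array of MII oocytes and 1-cell embryos.

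Most of the 39 members called higher at the 2-cell stage were at their highest control mean there (32 of 39). At the 4-cell stage 26 were called lower again, 13 were not called and 0 were called higher. The same 2-cell control arrays chose these members, which favours a peak there and a later fall, so these counts are a description. How often all probes called higher at the 2-cell stage peaked there or fell later was not counted. Some of the members, among them Olfr606, Olfr766 and Olfr885, did not meet the detection rule in any control condition. Over 4-cell, 8-cell, morula and blastocyst controls the means of Olfr118 were 9.03, 8.42, 6.55 and 4.76, and those of Olfr376 8.78, 8.02, 6.69 and 5.55. Each later stage was lower than the one before in both genes. The other 7 had their highest control mean later, Olfr328 and Olfr536 at the 4-cell stage, Olfr1221 at the 8-cell stage, and Olfr224, Olfr424, Olfr1383 and Olfr1466 in morulae. Olfr1466 was not called between the 2-cell and 4-cell stages (12.44 against 12.05, adjusted p = 0.0891, limma), rose further at the 8-cell stage by 1.05 on the log2 scale (adjusted p = 0.000189) and ended at 13.44 in blastocysts. Olfr1229, chosen like Olfr1466 and Olfr392 after its values were seen, was the reverse of the 2-cell group, with a mean of 6.56 at the 2-cell stage, its lowest, and 10.09 in morulae.

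**Figure D3:**
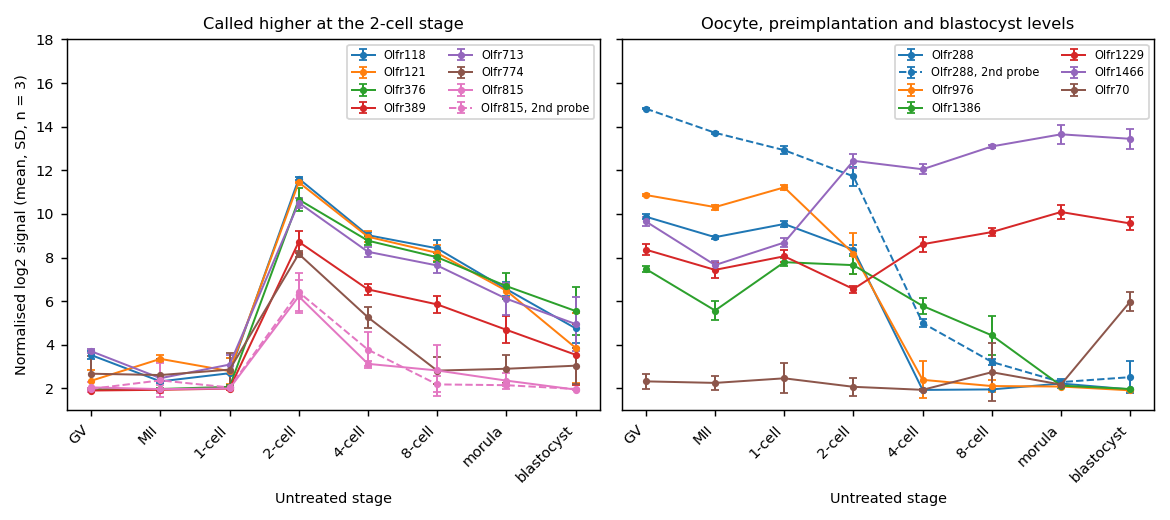
Normalised log2 signal (mean and SD of 3 arrays) through the 8 control stages, with members called higher at the 2-cell stage on the left and members with other courses on the right. Dashed lines are the second probe of a gene in order of probe name, which for Olfr288 is the probe that the text calls the first. On the left all lines leave background at the 2-cell stage and are lower at the 4-cell stage, and on the right both Olfr288 probes and Olfr976 drop at the 4-cell stage while Olfr1466 and Olfr1229 stay high.

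Of the 116 members detected on all 3 arrays of GV oocytes, 59 were so detected in 2-cell and 36 in 4-cell controls, and 60 were on none of the 4-cell arrays. GV detection chose these 116, and 11 of them are members through GV oocytes alone, which favours a later loss. The mean share of all probes well above background was 53.6% on GV and 45.1% on 4-cell control arrays. How many of all probes were lost in the same way was not counted, so these counts are a description. Genes called lower at these steps are described first. Olfr288 was read by a pair of probes, and both fell between 2-cell and 4-cell controls. The first of these read 14.84, 14.80 and 14.84 in GV oocytes, 11.22, 11.94 and 12.02 in 2-cell controls and 4.97, 5.18 and 4.85 in 4-cell controls, a drop of 106-fold between the last of these stages (log2 difference -6.73 ± 0.21 SE, adjusted p = 7.88e-22). The second fell from 8.60, 8.21 and 8.30 to 1.94, 1.95 and 1.91, at least 17.1-fold. No array of one stage reached the range of the other. Olfr976 behaved alike, at 11.22 ± 0.10 in 1-cell, 8.18 ± 0.95 in 2-cell and 2.40 ± 0.85 in 4-cell controls (SD, n = 3), and was at least 15-fold lower at the 4-cell than at the 2-cell stage. Olfr206 was lost earlier, from 6.16, 5.91 and 7.16 at the 1-cell stage to 4.00, 1.84 and 2.07 at the 2-cell stage, at least 5.07-fold lower. Olfr411 went down at least 4.44-fold at that step, with 1-cell controls at 5.22, 4.88 and 8.57 that differed widely among themselves.

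Between the 2-cell and 4-cell stages 9 members were called higher and 69 lower, beside 23.8% higher and 33.9% lower of all probes tested. That majority of lower calls held under 75th percentile scaling (20 and 56) and quantile normalisation (23 and 54). Olfr9, which was present in GV oocytes, reappeared at the 4-cell stage at 5.63, 6.15 and 6.85 after 1.86, 3.14 and 3.92 at the 2-cell stage, at least 4.40-fold higher. Olfr1243 rose at least 2.98-fold at the same step, to 5.66, 5.51 and 5.77, and none of its 2-cell arrays reached these values. From the 4-cell to the 8-cell stage 3 members were higher and 11 lower (7.39% and 6.11% of all probes). Olfr774, at 8.33, 8.13 and 8.04 in 2-cell and 5.78, 4.85 and 5.15 in 4-cell controls, was at least 1.95-fold lower at the 8-cell stage, where it was not detected. Olfr1221 was 2.30-fold higher at the 8-cell stage, a call lost in 5 of 6 fits that each left out 1 array, and Olfr338 was at least 1.15-fold higher, a call lost in 2 of 6, without replicate 1 of either stage.

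From the 8-cell stage to the morula 8 members were higher and 21 lower, beside 25.6% higher and 6.44% lower of all probes, 32.1% in all. Olfr1383, detected at the 4-cell stage and not at the 8-cell stage, was back in morulae at 5.33, 5.14 and 5.64, at least 2.09-fold above the 8-cell stage, and was at least 2.21-fold lower again in blastocysts. Its morula values lay above every 8-cell and blastocyst value. Olfr1386, described under the inhibitors below, was last seen at the 8-cell stage (5.32, 3.53 and 4.46, detected on 2 of 3 arrays) and stood at 2.13, 2.11 and 2.15 in morulae. Olfr881 was at least 1.35-fold lower in morulae, and Olfr487 was called higher through 1 morula array at 6.65, the others reading 2.96 and 2.07, and lost its call without that array. Blastocysts had 5 members higher and 10 lower than morulae (17.6% and 7.08% of all probes). Olfr70 was detected on all 3 arrays there alone, at 5.50, 6.25 and 6.20 against a mean of 2.18 in morulae, a pattern that chose it as a member and is given without a test. Olfr441 was at least 1.15-fold higher in blastocysts, a call lost without morula replicate 1, and Olfr121, one of the 2-cell risers, was 6.13-fold lower.

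Oocyte maturation was the step whose direction depended most on scaling. With smooth quantile normalisation 54 members were lower and 1 higher in MII than in GV oocytes, beside 40.9% lower and 0.67% higher of all probes, whereas scaling on the 75th percentile gave 60 higher and 10 lower and quantile normalisation 22 higher and 12 lower. The median of all probes moved with it, from -0.72 to 0.57 and 0.27, so a loss or gain over oocyte maturation is not stated for the group. Olfr52 (5.83, 5.99 and 6.07) and Olfr111 (5.61, 5.63 and 5.71) were detected on GV arrays and in no other full condition, and stood at 1.78 to 2.93 and 2.05 to 2.61 in MII oocytes. The rule chose them by these values. The 1 member called higher, Olfr121, was not well above background on any array of either stage, and its call was lost in 5 of 6 fits that each left out 1 array. From MII oocytes to 1-cell embryos 23 members were higher and 4 lower (15.6% and 3.91% of all probes), against 10 higher and 13 lower under either of the other scalings. Olfr187 was 6.82-fold higher in 1-cell embryos, with 6.99, 6.95 and 7.47 against 3.63, 4.37 and 5.11 (adjusted p = 1.90e-08, limma), and Olfr1386 was 4.65-fold higher. The arrays of the 2 stages did not overlap for either gene. The 2 falls named by rule, Olfr190 and Olfr1349, were lost in 5 and 2 of 6 fits that each left out 1 array.

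More olfactory receptor members were called higher than lower with each inhibitor at every stage collected. The counts include 45 members that qualified only through treated arrays, which are counted apart below. Treatment and slide cannot be told apart in any of them. In T247-treated 1-cell embryos 33 members were higher and 2 lower (7.32% and 0.885% of all probes, 8.21% in either direction), in 2-cell embryos 52 and 6 (10.5% and 15.2%, 25.8% in either), and in 4-cell embryos 40 and 2 (13.1% and 5.49%, 18.6%). MGCD0103 gave 21 higher and 1 lower in 1-cell embryos (4.49% and 0.661%, 5.15%) and 47 and 2 in 2-cell embryos (13.6% and 15%, 28.6%). The members called higher thus came to 17.3%, 27.2% and 20.9% of members with T247 and to 11% and 24.6% with MGCD0103. The median log2 difference of members was 0.30, 0.39 and 0.37 with T247 and 0.26 and 0.54 with MGCD0103, where the medians over all probes were 0.02, -0.21, 0.03, 0.10 and 0.07 in the same order. The comparisons at one stage share their 3 control arrays. Members called were mostly higher under each scaling, with 30 higher and 2 lower (75th percentile) and 21 and 3 (quantile) for T247 in 1-cell, 61 and 1 or 59 and 6 in 2-cell, and 33 and 3 or 30 and 5 in 4-cell embryos, and for MGCD0103 15 and 2 or 13 and 1, then 56 and 2 or 45 and 5. In the same order, members called higher with 75th percentile scaling were 15.7%, 31.9%, 17.3%, 7.85% and 29.3% of members, beside 6.03%, 14%, 10.9%, 3.08% and 15.4% of all probes. With quantile normalisation they were 11%, 30.9%, 15.7%, 6.81% and 23.6%, beside 4.94%, 13.3%, 9.82%, 2.71% and 15.3%.

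Since some members qualified only through the treated arrays, the same calls were counted in narrower sets. Among the 146 members detected in a control condition, 20, 29 and 28 were higher with T247 in 1-cell, 2-cell and 4-cell embryos (13.7%, 19.9% and 19.2%), where 6.49%, 8.83% and 12% of all probes so detected were. With MGCD0103 it was 10 and 29 (6.85% and 19.9%, against 3.97% and 12.1%). For members detected on all 3 arrays of both groups no difference needs an "at least" value, though background correction and slide still enter. Of these members, 13 of 72 were higher with T247 at the 1-cell, 17 of 74 at the 2-cell and 11 of 53 at the 4-cell stage (18.1%, 23% and 20.8%). The shares of all probes detected in that way were 5.37%, 6.79% and 9.67%. For MGCD0103 these counts were 7 of 70 and 14 of 77 (10% and 18.2%, against 3.35% and 9.76%). The 45 members detected in treated conditions alone gave 13, 23 and 12 of the higher calls with T247 and 11 and 18 of those with MGCD0103. Treated arrays chose them, so these calls are given as a description. At the 2-cell stage 1 of the 45 was called lower with T247 and 1 with MGCD0103.

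The size of the differences depended on how the background was corrected. With normexp correction of the raw signals, which adds an offset and shrinks differences among dim probes, the calls at these 5 comparisons fell from 35, 58, 42, 22 and 49 to 6, 14, 6, 4 and 6 (T247 at the 3 stages, then MGCD0103 at 2). Members called higher were then 3.14%, 6.81%, 3.14%, 1.57% and 2.62% of members, beside 2.47%, 3.35%, 4.08%, 1.55% and 4.38% of all probes. With that correction the members' share was thus below that of all probes for T247 at the 4-cell and MGCD0103 at the 2-cell stage. A common floor, which sets every value below 4.76 to that value, left 16, 27, 16, 10 and 21 calls. Members called higher were 7.85%, 13.6%, 8.38%, 4.71% and 10.5% of members, beside 4.59%, 6.17%, 7.6%, 2.95% and 8.29% of all probes.

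**Figure D4:**
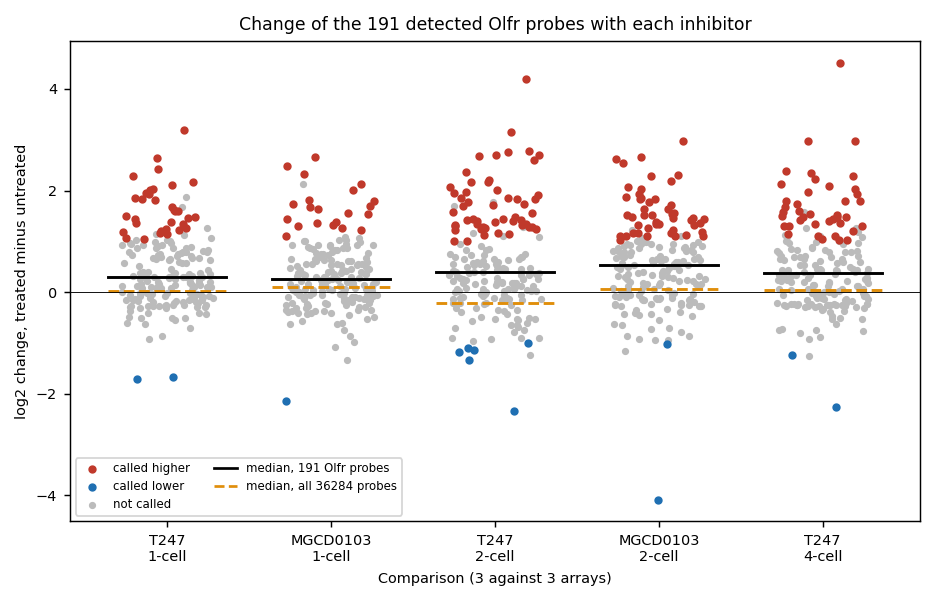
Log2 difference between treated and control embryos of the same stage for each of the 191 members (points; red, called higher; blue, called lower; grey, not called) in the 5 inhibitor comparisons of 3 against 3 arrays, with the median of members (solid line) and of all 36284 probes (dashed line). The medians of members, from 0.26 to 0.54, lie above those of all probes, and most called points are above 0.

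Olfr1500 was detected in treated embryos alone. It was not well above background on any of the 24 control arrays, where it read 1.82 to 3.85. T247-treated embryos read 5.76, 6.34 and 5.02 as 1-cell, 6.87, 6.97 and 6.55 as 2-cell and 7.57, 8.04 and 7.89 as 4-cell embryos. MGCD0103-treated embryos read 4.96, 4.99 and 5.06 as 1-cell and 5.05, 5.11 and 4.23 as 2-cell embryos. Every treated array lay above every control array. Against the controls of the same stage this was at least 2.59-fold, 6.62-fold and 11.8-fold with T247 and at least 1.59-fold and 1.65-fold with MGCD0103. Means with T247 increased from 5.71 ± 0.67 through 6.80 ± 0.22 to 7.83 ± 0.24 (SD, n = 3) over the 3 stages, while MGCD0103 embryos stayed between 4.23 and 5.11. These values are what made the probe a member, so no test is given. With normexp correction the T247 differences were 0.81, 1.36 and 2.04 and the MGCD0103 differences 0.44 and 0.41 on the log2 scale. Of its neighbours on chromosome 19 that the array holds, Olfr1499 was a member, and Olfr1497, Olfr1501 and Olfr1502 were not detected.

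Of the 191 members, 11 were called higher in each of the 5 inhibitor comparisons: Olfr1134, Olfr122, Olfr1232, Olfr1386, Olfr1410, Olfr1500, Olfr18, Olfr338, Olfr482, Olfr560 and Olfr780. Of these, Olfr122, Olfr1232, Olfr338, Olfr780 and Olfr1500 are members only through treated arrays, and their calls are a description. Among the 146 members detected in a control condition 6 were called higher in each comparison (4.11%), and of all probes so detected 1.3% were (1.4% of all 36284 probes). Olfr1386 was measured on every array of both groups. At the 1-cell stage it read 7.97, 7.58 and 7.82 in controls, 9.68, 9.68 and 9.89 with T247 and 9.42, 9.44 and 9.52 with MGCD0103. At the 2-cell stage the values were 8.03, 7.23 and 7.70, then 9.63, 9.57 and 9.49, then 9.46, 9.39 and 9.41, and at the 4-cell stage 6.09, 5.40 and 5.87 in controls and 7.34, 7.94 and 7.09 with T247. Treated and control arrays did not overlap at any stage. The differences were 1.96, 1.91 and 1.67 with T247 and 1.67 and 1.77 with MGCD0103 (± 0.28 SE, 3.19-fold to 3.89-fold, adjusted p from 1.49e-06 to 9.27e-05, limma). They remained between 0.98 and 1.67 with normexp correction.

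Olfr482 and Olfr560 were measured in both groups as well, with smaller differences. Olfr482 was at 5.47, 5.63 and 6.53 in 1-cell controls, 7.59, 7.67 and 7.82 with T247 and 6.98, 7.17 and 7.13 with MGCD0103. It was 3.53-fold, 2.54-fold and 2.20-fold higher with T247 at the 3 stages and 2.32-fold and 2.15-fold with MGCD0103. The call at the 2-cell stage with MGCD0103 was lost without control replicate 2, and that at the 4-cell stage without control replicate 3 or T247 replicate 2. Olfr560 was at 5.93, 5.66 and 5.60 in 1-cell controls, 7.17, 7.27 and 7.23 with T247 and 7.16, 7.16 and 7.18 with MGCD0103, with both sets of treated arrays above the controls. At the 2-cell stage it was 2.01-fold higher with T247, a call lost without control replicate 2 or T247 replicate 1, and 2.85-fold higher with MGCD0103. At the 4-cell stage controls no longer detected it, and T247 embryos did at 4.31, 4.53 and 4.47, at least 1.12-fold higher.

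Olfr1410 read 5.58, 5.18 and 5.84 in 1-cell controls, 7.76, 7.62 and 7.71 with T247 and 7.83, 7.75 and 7.38 with MGCD0103, which is 4.48-fold and 4.35-fold higher (adjusted p = 1.30e-05 and 3.15e-05, limma). The treated values lay close together and clear of the controls. At the 2-cell stage controls fell out of detection at 4.25, 2.21 and 2.45, while T247 embryos were at 5.16, 5.26 and 5.08 (at least 2.14-fold) and MGCD0103 embryos at 6.11, 5.87 and 5.85 (at least 3.67-fold). At the 4-cell stage T247 embryos were 2.71-fold higher. Olfr1134 was not well above background on any control array of these stages. Its means in treated embryos were 4.30 to 4.84, at least 1.16-fold to 1.56-fold higher. Olfr122, with treated means of 5.02 to 5.68, was at least 1.77-fold higher with T247 and 1.62-fold with MGCD0103 at the 1-cell stage. At the later stages 1 control array detected it, and it was 2.53-fold and 2.79-fold higher with T247 and 2.71-fold with MGCD0103.

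The remaining members of this set rested on fewer detected arrays. Olfr780 was at 6.51, 6.29 and 6.45 in 1-cell embryos with T247 and 6.11, 5.61 and 5.63 with MGCD0103, against 4.01, 2.88 and 4.42 in controls. It was at 5.13, 4.34 and 5.20 with T247 at the 4-cell stage against 1.93, 1.92 and 1.91, at least 1.53-fold. At the 2-cell stage its treated values, 3.41 to 4.65, were around the limit of detection, and its calls there were each lost in 4 of 6 fits that left out 1 array. Those of Olfr338 at the 2-cell stage were lost in 5 of 6 fits with T247 and 4 of 6 with MGCD0103, and those of Olfr18 in 1 and 2 of 6. At the 4-cell stage the calls of Olfr18 and Olfr338 were lost without 1 of the control arrays and that of Olfr1232 in 2 of 6 fits, and at the 1-cell stage with T247 that of Olfr18 in 2 of 6. At the 1-cell stage with MGCD0103 the calls of Olfr18, Olfr338 and Olfr780 were lost in 5, 3 and 1 of 6 fits. Olfr1232 was detected on all 3 arrays only at the 1-cell stage, at 4.31, 4.31 and 4.49 with T247 and 4.62, 4.23 and 5.37 with MGCD0103, at least 1.03-fold and 1.33-fold above controls at 2.04, 2.14 and 2.07.

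**Figure D5:**
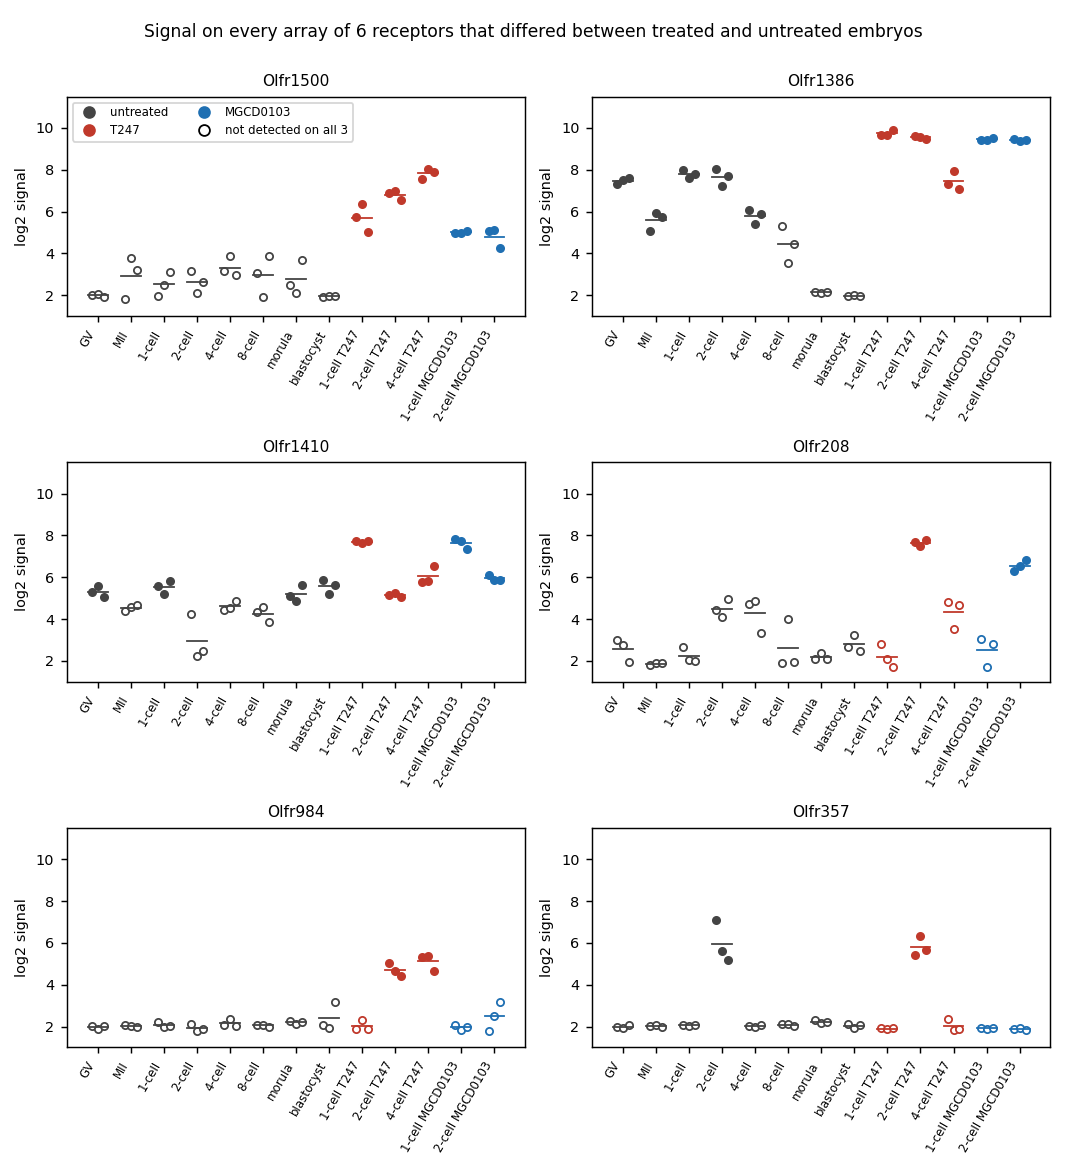
Normalised log2 signal on every array (points; line, mean of 3) of the 13 conditions for Olfr1500, Olfr1386, Olfr1410, Olfr208, Olfr984 and Olfr357, with open circles where a condition was not detected on all 3 arrays. Olfr1386 is above its controls in every treated condition, Olfr208 is detected in treated 2-cell embryos alone, and Olfr357 is at background in MGCD0103 2-cell embryos.

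Other members were higher at particular stages. Olfr208 stood at 4.43, 4.10 and 4.93 in 2-cell controls, 7.66, 7.50 and 7.79 with T247 and 6.32, 6.53 and 6.81 with MGCD0103. It was 8.94-fold higher with T247, whereas at the 1-cell stage none of its arrays detected it. Olfr1414 was at 4.68, 4.61 and 5.29 in 2-cell controls, 7.46, 7.61 and 7.78 with T247 (6.77-fold higher) and 6.70, 6.75 and 6.69 with MGCD0103. Both genes were detected on all 3 arrays in treated embryos alone, so that no p is given. Olfr984 was at background on all control and MGCD0103 arrays and came up with T247 at the 2-cell stage (5.04, 4.66 and 4.39, at least 1.54-fold) and the 4-cell stage (5.32, 5.39 and 4.66, at least 1.80-fold). Olfr901, present in GV oocytes, was at 4.00, 2.29 and 3.48 in 2-cell controls and 5.87, 5.82 and 5.97 with MGCD0103, at least 3.52-fold higher (adjusted p = 8.17e-08, limma). Olfr884 read 5.50, 5.35 and 5.33 with MGCD0103 and 5.68, 5.11 and 5.78 with T247 at that stage, where controls were at 3.15, 2.01 and 3.38, at least 2.50-fold higher with MGCD0103. Its treated arrays were all above the controls.

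Olfr328, which also rose in control embryos at the 2-cell stage, was at 4.76, 4.18 and 3.72 in 2-cell controls and 5.59, 9.07 and 6.00 with MGCD0103. One MGCD0103 array was far above the others. Olfr1390 was at 5.52, 4.87 and 4.90 in 1-cell embryos with MGCD0103 and 5.18, 4.80 and 4.39 with T247, against 3.26, 2.09 and 2.99 in controls, at least 1.70-fold higher with MGCD0103. It was not detected on all 3 arrays of any 2-cell condition. Olfr1301 at the 4-cell stage was 5.22-fold higher with T247, with T247 arrays at 5.67, 5.82 and 5.76 and controls at 1.92, 2.59 and 5.59, the last of which came close to the treated values. Its 2-cell values were 7.42, 7.30 and 7.59 with T247 and 5.83, 5.91 and 5.87 in controls.

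Falls were few, 13 calls over the 5 comparisons, and in 9 of them the treated group was not well above background on any array. Olfr357 was detected on all 3 control arrays at the 2-cell stage alone. It read 7.08, 5.62 and 5.16 in 2-cell controls, 5.44, 6.31 and 5.67 with T247 and 1.88, 1.93 and 1.81 with MGCD0103. MGCD0103 embryos were at the background level of all other conditions, at least 4.31-fold below controls (log2 difference -4.08 ± 0.26 SE, adjusted p = 1.59e-13, limma), and T247 embryos were within the range of the controls. Olfr288, falling at this stage, was at 10.53, 10.60 and 10.74 with T247 against 11.22, 11.94 and 12.02 in 2-cell controls by the first of its probes (log2 difference -1.10), a call lost without control replicate 2 or 3. The other probe differed by less than 1, with 7.54, 7.50 and 7.32 against 8.60, 8.21 and 8.30. Olfr332, detected on all 3 arrays of morulae alone, was lower with T247 at all 3 stages, by at least 1.14-fold, 1.23-fold and 1.04-fold, the first call being lost without control replicate 2 or T247 replicate 1. Olfr411 was lower at the 1-cell stage with both inhibitors (4.42, 4.81 and 4.28 with T247, 3.64, 4.10 and 4.47 with MGCD0103), calls lost in 4 and 2 of 6 fits that each left out 1 array, among them those without control replicate 3, which stood at 8.57. Of the other falls with T247, those of Olfr166 and Olfr1463 at the 2-cell stage were each lost in 2 of 6 such fits. That of Olfr204 at the 4-cell stage was lost in 4 of 6, and rested on 1 control array at 5.19. Olfr1299 was called lower with MGCD0103 at the 2-cell stage, with no array of either group well above background.

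T247 and MGCD0103 were compared directly at the same dose, exposure and collection time. The T247 arrays of these stages shared a slide and the MGCD0103 arrays shared another, so inhibitor and slide cannot be told apart here either. At the 1-cell stage 0 members were called higher and 1 lower with MGCD0103 than with T247 (0.0496% and 0.223% of all probes), and 18 of 191 had an unadjusted p under 0.05. How many of all probes had such an unadjusted p was not counted. The 1 call, Olfr1277, was at background in both groups apart from 1 T247 array, and was lost in 4 of 6 fits that each left out 1 array. At the 2-cell stage 10 members were higher and 6 lower with MGCD0103 (3.48% and 2.92% of all probes, 6.4% in all), a split that became 8 and 6 with 75th percentile scaling and 5 and 13 with quantile normalisation. Olfr357 was at least 3.89-fold lower with MGCD0103 (adjusted p = 9.71e-11, limma). Olfr984 was at least 1.80-fold lower, and Olfr1299, which T247 2-cell embryos alone expressed on all 3 arrays (5.51, 5.57 and 5.80, against 1.80, 2.47 and 1.76 with MGCD0103), at least 3.43-fold. The arrays of the treatments were fully apart for these genes. In the other direction Olfr976 was at 9.31, 9.03 and 8.87 with MGCD0103 and 7.68, 7.59 and 7.80 with T247, a difference of 1.38 ± 0.37 SE (adjusted p = 0.00715), while its controls read 9.23, 7.37 and 7.95 and were further apart than either treated group. Olfr877 and Olfr332 were called higher with MGCD0103, Olfr877 with no array of either group well above background and Olfr332 through replicate 1 (4.23, against 2.63 and 3.18 on the others), and both calls were lost without MGCD0103 replicate 1. Olfr1386 differed by -0.14 ± 0.28 SE and Olfr1410 by 0.78 ± 0.32 SE between the inhibitors at the 2-cell stage (adjusted p = 0.759 and 0.0782), and neither was called.

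Beside the receptors, the array holds the genes through which the receptors signal in the nose. Of 29 probes for odorant signalling and receptor transport 25 were detected, for 17 of 19 genes. Of these, 5 were higher and 0 lower with T247 in 1-cell, 4 and 2 in 2-cell and 5 and 2 in 4-cell embryos, and with MGCD0103 2 and 1, then 5 and 1. Of all probes 7.32%, 10.5% and 13.1% were higher with T247 and 0.885%, 15.2% and 5.49% lower. With MGCD0103 4.49% and 13.6% were higher and 0.661% and 15% lower. The genes named next are a description, not a result about the list. Omp, the olfactory marker protein of mature sensory neurons, rose in each of the 5 comparisons (adjusted p from 2.80e-07 to 0.000308, limma). At the 1-cell stage the log2 difference was 2.11 with T247 and 1.71 with MGCD0103 (± 0.31 SE). The 2-cell rises were at least 3.73-fold and 3.80-fold, and the 4-cell rise with T247 was at least 1.42-fold. In controls Omp had means of 5.61 in GV oocytes, 4.90 at the 1-cell stage and 7.42 in blastocysts, and was not detected from the 2-cell to the 8-cell stage. Cnga2, a subunit of the channel opened by cyclic AMP in sensory cilia, was higher with T247 at the 1-cell and 4-cell stages, by 1.23 and 2.23. Of the probes for Cngb1, another subunit, 1 rose in every comparison, by 1.34 to 1.64 at the 1-cell and 2-cell stages and at least 1.37-fold at the 4-cell stage, and 1 fell with MGCD0103 at the 2-cell stage (-1.14), so the gene has no single direction. Of the 12 probes for markers of olfactory sensory neurons, some of which the signalling genes share, 10 were detected. With T247 4 were higher and 0 lower in 1-cell, 2 and 1 in 2-cell and 3 and 0 in 4-cell embryos. With MGCD0103 it was 1 and 0, then 2 and 0. Processed signals of the 12 probes were summed without normalisation, so overall array brightness enters. At the 1-cell stage the sums were 2908 to 3458 with T247 and 3485 to 3762 with MGCD0103 against 3265 to 4413 in controls. For 2-cell embryos the sums were 1445 to 1665 and 1627 to 1985 against 1133 to 1237. For 4-cell embryos they were 1139 to 1369 with T247 against 484 to 703 in controls.

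Among genes that control receptor choice or olfactory receptor chromatin, 22 of 23 probes were detected, of which 3 were higher and 0 lower with T247 in 1-cell, 1 and 3 in 2-cell and 2 and 0 in 4-cell embryos, and with MGCD0103 3 and 0, then 3 and 5. At the 2-cell stage 15.2% of all probes were lower with T247 and 15% with MGCD0103. The counts and the genes named next are a description, not a result about the list. Lbr, the nuclear envelope receptor whose loss in neurons lets receptor clusters come together, fell at the 2-cell stage by 1.63 with T247 and 2.00 with MGCD0103 on the log2 scale, by the probe detected on all arrays. Hmgb2, a chromatin protein, fell by 2.34 and 2.70 at that stage. Suv39h2, a histone methyltransferase of heterochromatin, was higher by 1 of its 2 probes with both inhibitors at the 1-cell stage (1.32 and 1.27) and with MGCD0103 at the 2-cell stage (1.52). Lhx2, a transcription factor of receptor choice, was 1.04 higher with MGCD0103 at the 2-cell stage.

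Markers of cells that could have come along with the embryos were measured beside the receptors. Of 11 probes for cumulus and granulosa cells 6 were detected and 0 were called in any comparison of an inhibitor with controls. At the 2-cell stage 1 was higher with MGCD0103 than with T247 (3.48% of all probes were). The summed signal of the 11 probes, again not normalised, was 7313 to 8808 with T247, 10345 to 11546 with MGCD0103 and 13332 to 14420 in controls at the 2-cell stage. In morula controls, with 2 of the 11 probes well above background on each array, it was 22315 to 24251. The sum is therefore not taken as a measure of cumulus cells. Of 8 sperm probes 5 were detected. In 2-cell embryos 1 was higher and 1 lower with either inhibitor, where of all probes 10.5% and 15.2% were with T247 and 13.6% and 15% with MGCD0103. The summed signal of the sperm probes was 632 to 891 with T247, 1306 to 1469 with MGCD0103 and 1004 to 1305 in controls. The part of these cells in the receptor differences was not tested.

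A pair of member probes was present for 6 genes. Over these genes at least 1 probe was called in 23 comparisons, both were called in the same direction in 9, and in none were they called in opposite directions. In the other 14 a single probe was called. The fitted differences had the same sign in 21 of the 23, but sizes could be far apart. For Olfr281 they were -4.01 and -0.45 in 4-cell against 2-cell controls and 1.03 and -0.63 in blastocysts against morulae on the log2 scale. For Olfr288 they were -1.78 by the first and 0.02 by the second probe in 8-cell against 4-cell controls. Olfr815 had closer values at the 2-cell stage. In controls its probes read 7.01, 6.10 and 5.55 and 7.41, 5.84 and 5.99, at least 3.70-fold and 4.24-fold above the 1-cell stage. With T247 they read 7.68, 7.68 and 7.74 and 7.67, 7.77 and 7.70.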

How the data were processed

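Expression was measured on 39 one-colour Agilent mouse arrays, 3 for each of 13 conditions, grouped by the labels. The deposited scanner files give, for each spot, the authors' processed signal intensity (background-subtracted by Agilent Feature Extraction, version 9.5.1.1 per the labels and 10.7.1.1 per the file headers), raw mean and background intensities, and detection flags. The deposited series matrix holds the authors' log2 values for 19143 probes, 37 of them members, and was used as an alternative.

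Control spots and outlier spots were left out (5033 values), spots of a probe were averaged, and log2 processed signals were brought to a common distribution by smooth quantile normalisation (smoothing window 0.05). No spot was saturated, no pair of arrays was identical, and the number of arrays limits the precision. Probes well above background on all 3 arrays of a condition were kept (36284 of 55681), and 14 comparisons were fitted in one model with limma 3.58.1 in R 4.3.3, with Benjamini-Hochberg adjustment over these probes. The fit was tested on simulated data. Exact tests of 3 against 3 arrays cannot go below p = 0.1. Where a member was chosen through the contrast itself, its values are given with no p. Replicates are separate pools of embryos.

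The members, gene lists and named genes were chosen with earlier results of these data known. The rule named Olfr1500, up to 4 largest rises and falls without overlap per inhibitor comparison, up to 2 per stage or direct comparison, and members called in all 5 inhibitor comparisons. Alternatives changed the scaling, background correction, detection filter, arrays fitted, probes per gene, slide and replicate blocks, and left out each replicate. In controls the replicate number is also the slide, per the file headers, and samples with the same number deviated together (correlations of 0.0190 to 0.211). Probe positions are mm9, from the files. Gene models and neighbours come from RefSeq (GRCm38.p6), in which 189 of 191 members were matched.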

Additional observations from a re-analysis of the deposited data

Results flagged for a closer look

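Inhibitor effects that differed between the 1-cell and the 2-cell stage were looked for among 27 members named in an inhibitor comparison, as an interaction term in the limma fit, and 15 of 54 values passed after adjustment over all probes, 9 with T247 and 6 with MGCD0103. How many of all probes passed was not counted. These members were picked for a large difference in one of the same contrasts, so the values are a description of where the differences lay and no p is given. A positive value means a larger treated-minus-control difference at the 2-cell stage. Values are fitted differences on the log2 scale, and where a group was at background they depend on the background level and are no bounds.

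With T247 the value was 3.30 for Olfr884, 3.19 for Olfr208, 2.82 for Olfr984, 2.74 for Olfr1299, 2.12 for Olfr1414 and -1.97 for Olfr1390. With MGCD0103 it was 3.17 for Olfr884, 2.42 for Olfr1414 and 1.77 for Olfr208. These 6 members were detected on all 3 arrays in treated embryos alone, and in each case in 1 of the 4 groups compared.

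Among members detected in controls, Olfr901 had values of 1.49 with T247 and 1.86 with MGCD0103. Olfr166 and Olfr1463 had -2.20 and -1.18 with T247. Olfr357, which was at background in all 1-cell embryos, had -3.92 with MGCD0103. Olfr411 had 2.17 with MGCD0103, a value to which the 1-cell control array at 8.57 contributes.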

How the results depend on the processing

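For named members and comparisons, 1035 values under an alternative kept their direction and side of the threshold, 226 kept their direction and lost the call, and 0 reversed. Counts of members called moved past 1.5 times under the settings that follow, in the order T247 at the 1-, 2- and 4-cell stages, MGCD0103 at the 1- and 2-cell stages, MGCD0103 against T247 at the 1- and 2-cell stages, and the 7 stage steps from MII against GV to blastocyst against morula (main counts 35, 58, 42, 22, 49, 1, 16, 55, 27, 80, 78, 14, 29 and 15). Normexp correction gave 6, 14, 6, 4, 6, 0, 2, 13, 3, 28, 28, 1, 3 and 0. The common floor at 4.76, chosen after seeing the data, gave 16, 27, 16, 10, 21, 0, 6, 20, 11, 40, 39, 4, 12 and 5. Detection in each of the conditions, which tests 112 members, gave 22, 27, 25, 13, 23, 0, 2, 37, 15, 33, 40, 8, 18 and 8. The series matrix, with 37 members, gave 8, 6, 10, 3, 6, 0, 0, 11, 4, 8, 14, 2, 5 and 0. Quantile normalisation gave 14 for MGCD0103 at the 1-cell stage, 0 for the inhibitors against each other there and 34 for MII against GV. Fitting only the conditions compared gave 0 for the inhibitors at the 1-cell stage, 7 for 8-cell against 4-cell and 6 for blastocyst against morula. The number of members was 481 with the positive-and-significant flag in place of well above background. Leaving out 1 replicate gave 29 to 42, 49 to 60, 38 to 45, 15 to 25, 41 to 62, 0 to 2, 10 to 16, 47 to 56, 21 to 29, 73 to 88, 76 to 82, 14 to 19, 26 to 32 and 13 to 21 in the same order, the highest for MGCD0103 at the 2-cell stage being without control replicate 1.

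With the replicate number as a block the counts were 37, 58, 43, 23, 49, 1, 17, 56, 30, 79, 79, 16, 30 and 15. Treated and control samples share only a number (correlations of deviations from -0.119 to 0.133). Many members lie near the detection limit, where background correction sets the size of a difference, and slide and treatment cannot be told apart.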
